A study of Homo sapiens with 4 samples.

Results

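The genes described here are *FKBP7* and 9 related prolyl isomerases, *FKBP9*, *FKBP10*, *FKBP14*, *FKBP11*, *FKBP2*, *FKBP1A*, *FKBP4*, *FKBP5* and *PPIB*, followed through a knockdown of the RNA-binding protein QKI. These 10 genes were taken by symbol out of the 16708 genes with a value in at least 1 library. They were chosen because *FKBP7* was already known to be lower in the QKI-knockdown libraries, so the change of *FKBP7* is a description with no test, and the question is whether its relatives share it. RNA-Seq was done on BEAS2B cells, a virus-transformed human line from bronchial epithelium, grown in medium with 10% serum. Control cells carried a retroviral short hairpin RNA against luciferase, which the cells lack, and QKI-knockdown cells carried a retroviral hairpin, sh-Q3, against a stretch shared by the QKI isoforms. Each group had 2 libraries, numbered replicate 1 and replicate 2. No source says that the libraries came from separate cultures, so any p-value measures only the spread between these libraries, and with 1 hairpin its own effects cannot be told apart from those of lower QKI.

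Prolyl isomerases turn the peptide bond in front of a proline between its cis and trans forms, a slow step in the folding of many proteins and of collagen above all. The FKBP family takes its name from binding the drug FK506, and PPIB is a cyclophilin, a member of the family that binds cyclosporin. FKBP7, FKBP14, FKBP9, FKBP10, FKBP2 and PPIB reside in the lumen of the endoplasmic reticulum (ER), where secreted proteins fold, FKBP11 is anchored in a membrane of the secretory pathway, and FKBP1A, FKBP4 and FKBP5 work in the cytosol. QKI is an RNA-binding protein of the STAR family that recognizes ACUAAC and ACUAAU in RNA and acts on splicing and on mRNA stability.

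The totals behind the RPKM values (reads scaled to gene length and to the size of the library) were recovered from the spacing of these values. They were 20052951 and 20571555 for replicate 1 of control- and QKI-knockdown cells, and 34706058 and 34862008 for replicate 2. These totals are not the reads sequenced, of which the paper reports more in either group. The fits took in 11829 genes that averaged 0.5 RPKM or more over the libraries, all 10 members included. *QKI* itself was at 8.94 and 14.6 RPKM in control cells and at 2.52 and 3.85 RPKM in QKI-knockdown cells, in the order of the replicate numbers. Its ratio to control was 0.282 within replicate 1 and 0.264 within replicate 2. The sense strand of sh-Q3, shown because it defines the knockdown, lies in coding sequence of *QKI* at chr6:163956115-163956133 (hg19, plus strand) and matches none of the members' canonical transcripts.
sh-Q3 sense strand: gaagagagcagttgaagaa

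Of 9 markers of bronchial epithelium, 5 reached 0.5 RPKM in a library, while *KRT5* was at 0 and *CDH1*, *TP63* and *FOXA1* stayed under 0.5 RPKM in all 4 libraries. The summed level of the 9 genes was 683.3 and 649.4 RPKM in replicate 1 and 216 and 254.6 RPKM in replicate 2 of control- and QKI-knockdown cells. Of 8 fibroblast markers 3 reached 0.5 RPKM, with *DCN* at 0 and sums between 101.9 and 143.9 RPKM, and of 5 leukocyte markers 1 did, with *CD3E* at 0 and sums between 0.808 and 5.22 RPKM. None of 4 endothelial markers reached 0.5 RPKM. The part of these differences in the members' values was not tested.

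*FKBP7* mRNA was lower in QKI-knockdown cells within both replicate numbers, with the lower ratio to control in replicate 2. *FKBP7* (ENSG00000079150, chr2:179328391-179343327 of hg19, minus strand) encodes an ER-lumen isomerase with calcium-binding EF hands that is known to bind the chaperone BiP. It was at 1.26 RPKM in control replicate 1, 2.48 in control replicate 2, 0.928 in QKI-knockdown replicate 1 and 1.03 in QKI-knockdown replicate 2. Both QKI-knockdown libraries lay below both control libraries, and the groups did not overlap. Nothing is read from this, because *FKBP7* was chosen for its fall and the share of all genes so separated was not counted. These levels rest on 185, 631, 140 and 264 recovered reads in the same order. Control cells averaged 1.87 ± 0.864 RPKM, against 0.981 ± 0.0740 RPKM after QKI knockdown (SD, n = 2), a ratio of means of 0.525. In bulk RNA, fewer cells that express a gene and less mRNA per cell cannot be told apart.

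Within replicate 1 the ratio of *FKBP7* in QKI-knockdown to control cells was 0.738, with an exact 95% interval of 0.588 to 0.924, and within replicate 2 it was 0.417, with an interval of 0.359 to 0.482. The intervals cover counting error only, and are too narrow if reads were counted more than once. On the log2(RPKM + 0.5) scale, which understates the change of low genes, the differences were -0.30 and -0.96, with a mean of -0.63. With 1 library per group within a number, the gap between these values has no replicate check. Among the 11829 genes, *FKBP7* ranked 25 from the lowest change when the numbers were pooled, 569 within replicate 1 and 16 within replicate 2. Of 2216 genes within a factor of 2 of its level, itself included, 188 (8.48%) were as low within replicate 1. Within replicate 2 the count was 7 (0.316%). These ranks and counts are a description, since the fall chose the gene.

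*FKBP14* (ENSG00000106080, chr7:30050203-30066318, minus strand) followed in the same direction with a smaller difference. It is an ER-lumen relative of *FKBP7* with EF hands, and its loss causes a form of Ehlers-Danlos syndrome, a connective tissue disorder. *FKBP14* was at 4.81 and 10.57 RPKM in control cells and at 4.47 and 7.96 RPKM in QKI-knockdown cells, in the order of the numbers. Its groups overlapped, since the level was higher in replicate 2 of either group than in replicate 1 of either group. Within replicate 1 the ratio to control was 0.929, with an exact 95% interval of 0.833 to 1.036 that includes no change, and within replicate 2 it was 0.753, with an interval of 0.710 to 0.799. The differences of -0.10 and -0.39 on the log2(RPKM + 0.5) scale were less negative than those of *FKBP7* within each number.

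**Figure D1:**
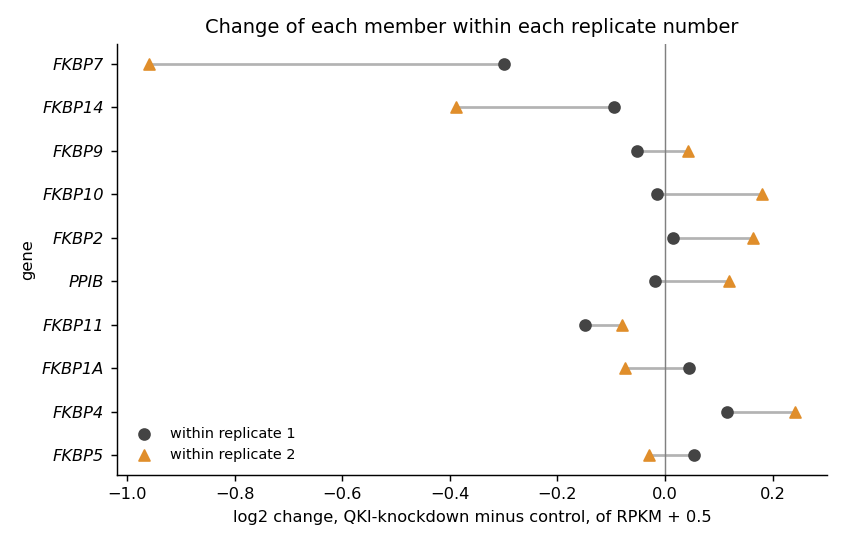
Change of the 10 members, as log2(RPKM + 0.5) in QKI-knockdown cells minus that in control cells (horizontal axis), within replicate 1 (circles) and replicate 2 (triangles), joined by a grey line for each gene. *FKBP7* lies at -0.30 and -0.96, *FKBP14* at -0.10 and -0.39, and the other 8 members lie between -0.15 and 0.24.

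*FKBP7* and *FKBP14* each hold the QKI recognition letters in their mRNA, as do other members that moved little. The canonical transcripts were searched on the sense strand for ACTAAC and ACTAAT, the DNA spelling of the recognized letters, which differ only in the last letter, so that no position counts under both. The matches of *FKBP7* and *FKBP14* are shown in 30 bases of hg19 each, 5′ to 3′ on the minus strand, with the matched letters in capitals, because QKI was the factor removed. All 5 lie in 3′ UTRs, at chr2:179329606-179329635 for *FKBP7* and, in the order of the lines, at chr7:30052555-30052584, chr7:30052499-30052528, chr7:30051089-30051118 and chr7:30050614-30050643 for *FKBP14*.
FKBP7: atcattcttgtcACTAATgatgaatgatca
FKBP14, site A: cccagggtcagcACTAACctgcagaaccag
FKBP14, site B: ctactgccctctACTAATgaaaagtgaaaa
FKBP14, site C: tatagggcacttACTAACggagcttacaga
FKBP14, site D: aaataataaaaaACTAACcttagcttactg

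*FKBP4* held 2 such matches, *FKBP9*, *FKBP11* and *FKBP5* held 1 each, and *FKBP10*, *FKBP2*, *PPIB* and *FKBP1A* held 0. At least 1 match was present in 8653 of 19894 canonical transcripts (43.5%). Among transcripts within 10% of its own length the share was 40.8% for *FKBP7*, with 812 of 1991, and 63.7% for *FKBP14*, with 1130 of 1775. A match of these letters is a description of the sequence and not a binding site. Only spliced transcripts were searched, so a count of 0 says nothing of the introns.

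The other 4 ER-lumen members differed little between control- and QKI-knockdown cells. *FKBP9*, an isomerase with several FKBP domains, was at 23.5 and 15.8 RPKM in control cells and at 22.7 and 16.3 RPKM in QKI-knockdown cells, with ratios of 0.964 and 1.03 within replicates 1 and 2. *FKBP9* has a near-identical pseudogene copy, and ambiguously aligned reads were left out, so its level is uncertain. *FKBP10*, a collagen chaperone whose loss causes brittle bones, was at 47.6 and 23.9 RPKM in control cells and at 47.1 and 27.1 RPKM in QKI-knockdown cells, with ratios of 0.990 and 1.14. *FKBP2*, a small ER-lumen FKBP, was at 19.6 and 8.68 RPKM in control cells and at 19.8 and 9.78 RPKM in QKI-knockdown cells, with ratios of 1.01 and 1.13. In all 3 genes the groups overlapped, and the libraries parted by replicate number instead, with replicate 1 above replicate 2.

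*PPIB*, which works beside CRTAP and prolyl 3-hydroxylase on procollagen, was the most abundant member. It was at 395.4 and 244.1 RPKM in control cells and at 390.3 and 265.0 RPKM in QKI-knockdown cells, with ratios of 0.987 (exact 95% interval 0.958 to 1.017) and 1.09 (1.055 to 1.117). The groups overlapped, and the direction differed between the numbers, as it did for *FKBP9* and *FKBP10*.

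*FKBP11*, the membrane-anchored member, was at 8.02 and 4.99 RPKM in control cells and at 7.18 and 4.69 RPKM in QKI-knockdown cells. Its ratios were 0.896 (0.842 to 0.953) within replicate 1 and 0.940 (0.886 to 0.998) within replicate 2. The log2 differences of -0.15 and -0.08 made it the only member besides *FKBP7* and *FKBP14* with a lower level within both numbers, although the groups as a whole overlapped.

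Of the cytosolic members, *FKBP4*, an HSP90 co-chaperone of steroid receptors, was the one with a higher level within both numbers. It was at 68.4 and 23.8 RPKM in control cells and at 74.1 and 28.2 RPKM in QKI-knockdown cells, with ratios of 1.08 (1.048 to 1.121) and 1.19 (1.137 to 1.238). *FKBP5*, the co-chaperone that glucocorticoids induce, was nearly even over the 4 libraries, at 10.3 and 11.2 RPKM in control cells and at 10.7 and 11.0 RPKM in QKI-knockdown cells, with ratios of 1.04 and 0.979. *FKBP1A*, the small FKBP that binds FK506 and rapamycin and keeps the type I TGF-β receptor inactive, was at 67.3 and 101.9 RPKM in control cells and at 69.5 and 96.7 RPKM in QKI-knockdown cells, with ratios of 1.03 and 0.949. The groups overlapped in each of these genes.

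Counted over the 10 members, 3 were lower within both numbers (*FKBP7*, *FKBP14* and *FKBP11*), 2 were higher within both (*FKBP4* and *FKBP2*), and 5 had opposite directions in replicates 1 and 2. Pooled over the numbers, 5 of 10 lay below 0 on the log2 scale, and the median of the 10 was 0.0036. Among all genes tested, 4495 of 11829 (38%) lay below 0, 1963 were lower within both numbers, 3750 were higher within both, and the median was 0.03. Without *FKBP7*, the other 9 ranged from -0.24 to 0.18 with a median of 0.01. The fall of *FKBP7* was therefore not shared in size by any other member in either number, and it was shared in direction within both numbers by *FKBP14* and *FKBP11*.

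The fit across all genes called no member and no gene in the knockdown contrast when the replicate number was left out. With limma, 0 of 11829 genes (0%) passed an adjusted p of 0.05. At an unadjusted p under 0.05, 4 genes were higher and 9 lower. Run on recovered reads, voom of limma gave 0 calls as well. *QKI* itself, at a log2 change of -1.72, was not called by limma without the replicate number (adjusted p = 0.9999 by limma). The 0 calls are therefore no sign that mRNA levels stayed the same. A fit that blocked on the replicate number called 58 genes (0.49%) higher and 43 (0.364%) lower. *QKI* was among the lower ones (adjusted p = 3.2e-33 by limma), and so was 1 of the 10 members, *FKBP7*. *FKBP7* was chosen by this contrast, so nothing is read from its call.

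**Figure D2:**
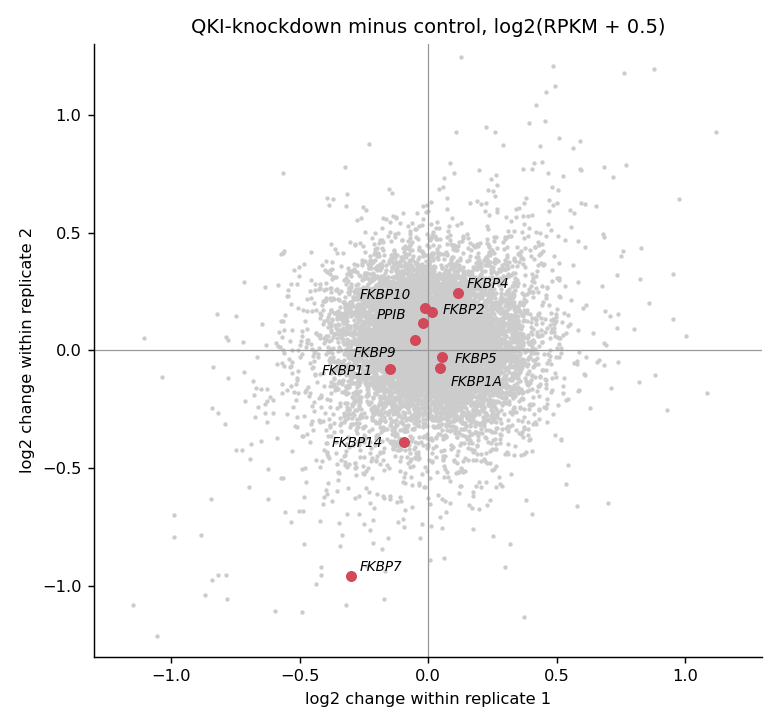
Change of each gene tested in QKI-knockdown minus control cells on the log2(RPKM + 0.5) scale, within replicate 1 (horizontal axis) and replicate 2 (vertical axis), with the 10 members in red and the other genes in grey. *FKBP7* lies at -0.30 and -0.96, away from the other members, and 10 genes beyond ±1.3 are not drawn.

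The order of the members by level had *PPIB* at the top and *FKBP7* at the bottom in every library. In control cells the means were 319.8 ± 107 RPKM for *PPIB*, 84.6 ± 24.4 for *FKBP1A*, 46.1 ± 31.5 for *FKBP4*, 35.7 ± 16.8 for *FKBP10*, 19.6 ± 5.48 for *FKBP9*, 14.2 ± 7.74 for *FKBP2*, 10.8 ± 0.627 for *FKBP5*, 7.69 ± 4.07 for *FKBP14* and 6.51 ± 2.14 for *FKBP11* (SD, n = 2). Neighbours in this order did not separate beyond their libraries, except that *PPIB* lay above *FKBP1A*, *FKBP10* above *FKBP9* and *FKBP11* above *FKBP7* in both control libraries without overlap. The gene length behind the RPKM was 0.247 times the union of annotated exons for *PPIB*, 1.09 times for *FKBP7* and 2.64 times for *FKBP11*, so the order between genes also depends on the length that the authors used.

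**Figure D3:**
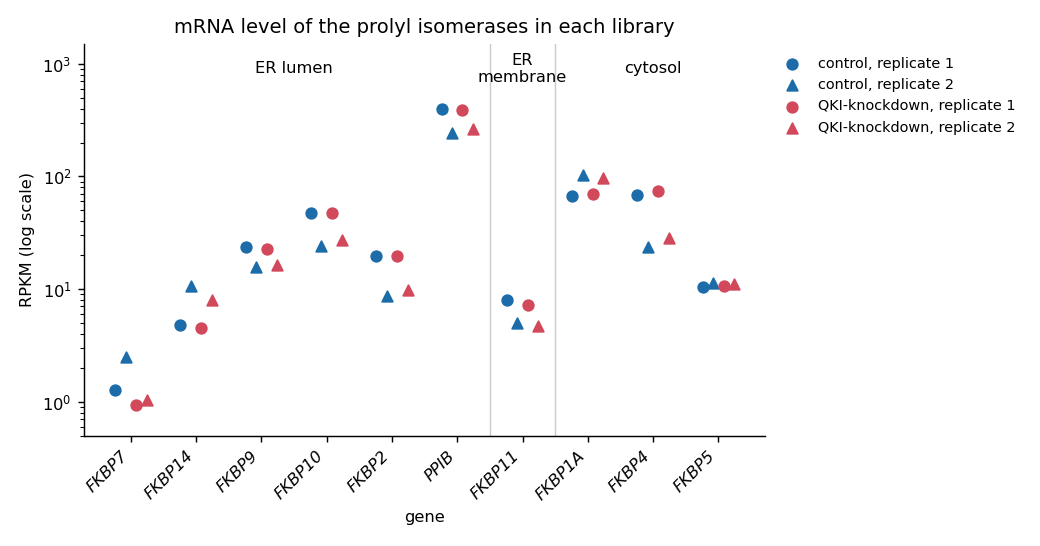
Level of each member in RPKM (vertical axis, log scale) in the 4 libraries, with control cells in blue, QKI-knockdown cells in red, replicate 1 as circles and replicate 2 as triangles, grouped by the place of the protein in the cell. *PPIB* is highest, between 244.1 and 395.4 RPKM, and *FKBP7* lowest, between 0.928 and 2.48 RPKM, and most members part by symbol shape rather than by colour.

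For 9 of the 10 members the replicate number made a difference that passed the test, a contrast that did not enter their choice. In the limma fit with the group as covariate, 3 members were called higher in replicate 2 and 6 lower, beside 35.2% of all genes called higher and 35.7% called lower. A background of that size leaves little to read from the members' count. Among the 6 lower members, *FKBP4* had the largest difference, with a log2 difference of -1.44 ± 0.115 (SE, adjusted p = 4.3e-34 by limma). *FKBP2* followed with -1.06 ± 0.122 (adjusted p = 3.3e-17 by limma) and *FKBP10* with -0.88 ± 0.115 (adjusted p = 1.1e-13 by limma). *PPIB*, *FKBP11* and *FKBP9* were lower in replicate 2 by log2 differences between -0.63 and -0.51.

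In the other direction, *FKBP14* was higher in replicate 2 by 0.91 ± 0.133 (adjusted p = 3.2e-11 by limma), *FKBP1A* by 0.53 ± 0.117 (adjusted p = 1.2e-05 by limma) and *FKBP7* by 0.43 ± 0.157 (adjusted p = 0.0096 by limma). The difference of *FKBP7* was 0.76 in control cells and 0.10 after QKI knockdown, which are the same 4 values seen the other way. *FKBP5* did not pass, with 0.07 ± 0.125 (adjusted p = 0.61 by limma).

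The 3 members called higher in replicate 2 had a lower GC content than the 6 called lower. The canonical transcript has 37.73% GC for *FKBP7*, 38.73% for *FKBP14* and 46.9% for *FKBP1A*, and between 50.98% (*FKBP4*) and 59.26% (*FKBP10*) for the 6. *FKBP5*, which was not called, has 43.17%, less than *FKBP1A*. Across the 10 members, which share the 4 libraries, GC content and the difference between the numbers had a Pearson r of -0.826 and a Spearman rho of -0.733, given as a description. Across 11434 genes with a canonical transcript the values were -0.699 and -0.728, so the members followed the gradient of all genes. The authors sequenced at a pair of read lengths, and the number is not tied to a length by any source used here, so the GC gradient, depth and read length cannot be told apart.

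**Figure D4:**
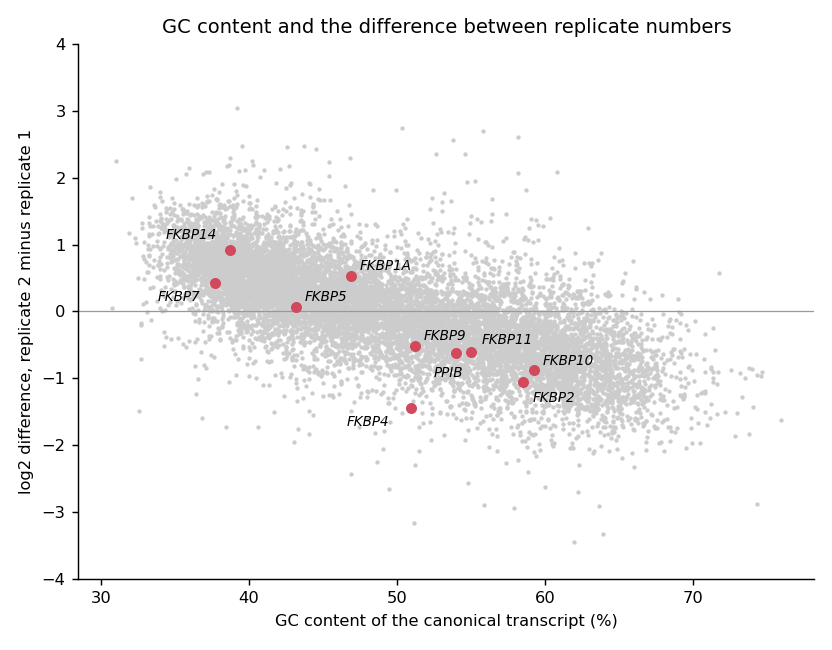
Difference between the replicate numbers, as log2(RPKM + 0.5) in replicate 2 minus replicate 1 averaged over the groups (vertical axis), against the GC content of the canonical transcript in percent (horizontal axis), for each gene tested (grey) and the 10 members (red). The members run from 0.91 for *FKBP14* at 38.73% GC to -1.44 for *FKBP4* at 50.98% GC and -0.88 for *FKBP10* at 59.26% GC, and 1 gene beyond ±4 is not drawn.

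GC content also moved with the knockdown difference itself, in opposite directions within the numbers. Across the same genes the Pearson r of GC content with the change in QKI-knockdown cells was -0.356 within replicate 1 and 0.482 within replicate 2. The 284 genes within 2 percentage points of GC and within a factor of 2 of the level of *FKBP7* had a median change of 0.13 within replicate 1 and -0.11 within replicate 2. Measured from these medians, *FKBP7* lay at -0.43 within replicate 1 and -0.85 within replicate 2, closer together than the uncorrected -0.30 and -0.96. The 284 genes had an SD of 0.22 within replicate 1 and 0.23 within replicate 2. The part of GC content in the gap that remains was not tested. For *FKBP14*, 880 such genes had medians of 0.13 and -0.08, from which it lay at -0.22 and -0.31. These 880 genes had an SD of 0.17 within each number. As low as *FKBP14*, itself included, were 79 of them within replicate 1 and 37 within replicate 2. In a fit with the block and a GC correction, chosen after seeing the data, *FKBP14* was not called, at -0.26.

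Genes beside the members were examined because *FKBP7* and *FKBP14* each start near a gene on the opposite strand. *PLEKHA3*, which encodes a lipid-binding protein of the Golgi, starts 1857 bp from the start of *FKBP7*, with no shared exon sequence. *PLEKHA3* was at 2.44 and 4.67 RPKM in control cells and at 2.27 and 4.30 RPKM in QKI-knockdown cells, so its change of -0.09 and -0.11 was the smaller of the pair in both numbers. *PLEKHA8*, a lipid transfer protein gene that starts 702 bp from *FKBP14*, was at 2.20 and 1.46 RPKM in control cells and at 2.54 and 1.62 RPKM in QKI-knockdown cells, with changes of 0.17 and 0.11 that go the other way from *FKBP14*. *P3H4* (*LEPREL4*), a gene of the collagen hydroxylation machinery that starts 76 bp from *FKBP10*, had changes of -0.07 and 0.17 beside -0.01 and 0.18 for *FKBP10*. None of the 3 was called in the knockdown contrast, with or without the block.

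Other genes overlap the members, and the library kit does not mark strand, so reads of overlapping exons cannot be assigned to either gene. *SNX22* shares 1163 bases of exon with *PPIB* on the opposite strand, and it was at 74.3 and 35.8 RPKM in control cells and at 70.9 and 39.1 RPKM in QKI-knockdown cells. *CCDC65* shares 59 bases with *FKBP11* and stayed between 0.642 and 0.856 RPKM. For *FKBP14*, 391 exon bases are shared with the antisense RNA *FKBP14-AS1*. Readthrough or antisense transcripts with no value of their own in these libraries share up to 987 exon bases with *FKBP2*, 515 with *FKBP1A*, 285 with *FKBP4* and 239 with *FKBP11*. No annotated gene overlaps the exons of *FKBP7*.

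The rest of the prolyl isomerase families and the known partners of the members were described by lists, chosen with earlier results of these data known. Without the block, 0 of the 93 listed genes tested was called in the knockdown contrast. Of the other FKBP genes 7 of 10 were tested, with a median change of 0.07 and 6 of 7 above 0, beside a median of 0.03 over all genes. *FKBP8*, a mitochondrial FKBP that restrains apoptosis, was at 97.1 and 52.1 RPKM in control cells and at 85.6 and 61.0 RPKM in QKI-knockdown cells. *FKBP3*, a nuclear FKBP and the only one of the 7 with a pooled change below 0, lay at -0.07, and *FKBPL* had the highest change, 0.23.

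Of the cyclophilins and parvulins 17 of 18 were tested, with a median change of 0.03, and 7 of 17 lay below 0. *PPIA*, the cytosolic cyclophilin, changed by -0.01 and -0.03, from 39.8 and 113.9 RPKM in control cells to 39.5 and 111.5 RPKM in QKI-knockdown cells. *PPIF*, the mitochondrial cyclophilin, had a pooled change of -0.12. *PPIC* had the highest pooled change, 0.23, and *RANBP2*, a nuclear pore protein with a cyclophilin domain, the lowest, -0.13. The change of *RANBP2* was 0.17 within replicate 1 and -0.43 within replicate 2, in opposite directions. None of these cyclophilin genes was called with or without the block.

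The 31 ER chaperones and disulfide isomerases, among which FKBP7 works, were all tested and had a median change of 0.07, with 23 above 0 and 8 below. Their 3 most abundant genes were *CALR*, *P4HB* and *HSP90B1*, with pooled changes of 0.12, 0.05 and 0.14. *CRELD2*, an ER stress-induced gene of disulfide exchange, had the lowest change, from 14.4 and 7.38 RPKM in control cells to 9.22 and 6.38 RPKM in QKI-knockdown cells. Its log2 differences were -0.62 and -0.20, larger in replicate 1, and *CRELD2* did not pass with the block (adjusted p = 0.11 by limma). It did with the block and a GC correction chosen after seeing the data, at -0.45 (adjusted p = 0.0036 by limma). That setting called 261 of 11434 genes, 162 of them lower, and 3 of the 93 listed genes tested. *PDIA2*, at 0.0884 to 1.27 RPKM, had the highest change, 0.37, and was not called either.

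Of the 14 procollagen-modifying genes 13 were tested, and 1 was called with the block. Over all genes tested, 0.49% were called higher and 0.364% lower. With 1 call among the 93 listed genes tested, little can be read from it. *LEPREL1* (*P3H2*), a prolyl 3-hydroxylase, was at 10.5 and 17.6 RPKM in control cells and at 14.8 and 26.8 RPKM in QKI-knockdown cells. Its log2 differences were 0.47 and 0.59, and it rose by 0.53 ± 0.120 with the block (SE, adjusted p = 0.0022 by limma) but did not pass without it. *PLOD2*, a lysyl hydroxylase of collagen, had the lowest change of this list, from 66.7 and 150.4 RPKM to 55.9 and 107.0 RPKM, with log2 differences of -0.25 and -0.49 (adjusted p = 0.11 with the block by limma). With the block and a correction for GC content, chosen after seeing the data, *PLOD2* was called lower at -0.38 (adjusted p = 0.0025 by limma). It was 1 of 162 genes called lower of 11434 under that setting. The collagen chaperone gene *SERPINH1* and the galactosyltransferase gene *GLT25D1* had pooled changes of 0.18 and 0.12, and the median of the list was 0.12. Within the numbers *SERPINH1* changed by 0.02 and 0.34 and *GLT25D1* by -0.04 and 0.27, and the median of the list was -0.04 within replicate 1 and 0.24 within replicate 2, so that *GLT25D1* and the list each had opposite signs in the numbers.

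The 14 HSP90 partners of FKBP4 and FKBP5 had a median change of 0.08, with 13 of 14 above 0 as *FKBP4* was. Over all genes tested, 38% lay below 0. Within the numbers the median of the list was 0.05 in replicate 1 and 0.01 in replicate 2. *HSPA8* and *HSP90AB1* were higher within both numbers, while *HSP90AA1* changed by 0.28 within replicate 1 and -0.0055 within replicate 2. *HSPA8*, *HSP90AB1* and *HSP90AA1*, the most abundant, had pooled changes of 0.11, 0.15 and 0.14, and *PPID*, a cyclophilin co-chaperone, was the one below 0, at -0.05. Of the 15 partners of FKBP1A 12 were tested, with a median change of 0.03. Among them *TGFBR1*, the type I TGF-β receptor, had the highest change, with 0.21 and 0.23 within the numbers, and *PPP3CB*, a catalytic subunit of calcineurin, the lowest, with -0.10 and -0.14. *ITPR3* and *PPP3R1* lay at 0.00 and 0.04. No gene of either list was called with or without the block.

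**Figure D5:**
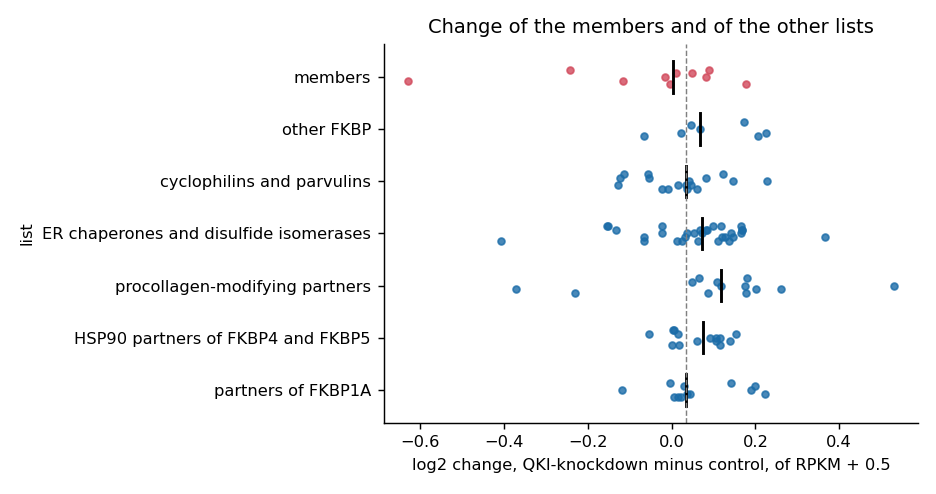
Pooled change in QKI-knockdown minus control cells on the log2(RPKM + 0.5) scale (horizontal axis) for the 10 members (red) and the genes tested of 6 lists (blue), 1 point per gene with the median of each list as a black bar and the median of all genes tested, 0.03, as a dashed line. *FKBP7* at -0.63 is the lowest point, followed by *CRELD2* at -0.41 and *PLOD2* at -0.37, and *LEPREL1* at 0.53 is the highest.

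The genes nearest to *FKBP7* in pattern over the 4 libraries are given as a description, since its change chose the part. Likeness was measured as the Euclidean distance between centred log2(RPKM + 0.5) values over the 4 libraries, among 11828 other genes. Within 0.25 lay 1 gene, a count that was not compared with that around other genes. *NRP2*, a co-receptor for semaphorins and vascular endothelial growth factors, was nearest at a distance of 0.248, with 0.585 and 1.10 RPKM in control cells and a ratio to control of 0.453 within both numbers. *ARAP2*, a GTPase-activating protein, followed at 0.267, the guidance ligand gene *SLIT2* at 0.271, the neuropeptide gene *NMU* at 0.271 and the lipase gene *PNPLA3* at 0.294. *NMU* had 27 and 78 recovered reads in control cells and 11 and 33 in QKI-knockdown cells. This log2 scale understates the change of low genes, so the distances also depend on level. None of the 5 is a prolyl isomerase or a listed partner. In each of the 5 both QKI-knockdown levels were below the control level of the same number, and the distances chose them for that.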

How the data were processed

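RNA-Seq was done on 2 control and 2 QKI-knockdown libraries of BEAS2B cells. The authors made libraries with a TruSeq RNA kit, read them single-end on an Illumina GAII, aligned the reads with Bowtie (no version stated) to hg19 and to Ensembl exon junctions, and left out ambiguous ones. The deposited values are RPKM per gene, computed by the authors. Genes missing from a table were set to 0.

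The spacing of the RPKM values gave back whole reads (relative tolerance 1e-11, 100% of values whole). Over genes they sum to between 1.35 and 1.53 times the library totals, so some reads may count for more than 1 gene. For some members the gene length exceeds the union of exons, so reads may also count more than once within 1 gene. Intervals on them cover counting error only, and are too narrow where reads count more than once. Tests used limma 3.58.1 in R 4.3.3 (eBayes with a trend) on log2(RPKM + 0.5) of genes averaging 0.5 RPKM or more, were two-sided, and called an adjusted p (Benjamini-Hochberg) under 0.05. The replicate number was a block only in alternatives, and a term of the contrast between numbers. The fit was tested on simulated data. Loci, GC content and transcript sequences came from GENCODE 44 lifted to hg19.

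The members and lists were chosen with earlier results of these data known. Genes named are *QKI*, the members, genes that start within 5 kb of a member's start or overlap it, the 5 genes nearest in pattern to *FKBP7*, and in each list the 3 most abundant, those called, and the largest rise and fall. Genes near or over a member that lack values in the tables are given only by their exon overlap. Some genes that the rule names are not reported here. Other pseudocounts and expression limits, median centring, voom and leaving out each library were tried.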

Additional observations from a re-analysis of the deposited data

How the results depend on the processing

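The number of genes called in the knockdown contrast was 0 without a block under other pseudocounts, other expression limits, median centring and voom. *QKI* itself was thus not called under these settings. With the replicate number as a block it was 101, with the block and median centring 114 (48 higher and 66 lower), with voom and the block 137, and with the block and a GC correction, chosen after seeing the data, 261 (99 higher and 162 lower of 11434). Leaving out 1 library gave 0 to 3 calls (3 without control replicate 2). The number is not known to mark a shared culture, and with 2 pairs the pairing is a hint only. Deviations of same-numbered libraries had a correlation of 0.953 across genes. The SD across genes of the difference between the numbers was 0.81 in control and 0.66 in QKI-knockdown cells. For the change within replicates 1 and 2 it was 0.20 and 0.21. An SD of n = 2 within a group therefore holds the difference between the numbers too. Of the listed genes, 1 was called with the block (*LEPREL1*), 1 with the block and median centring, 1 with voom and the block, and 3 with the block and GC correction, which added *PLOD2* (adjusted p = 0.0025 by limma) and *CRELD2* (adjusted p = 0.0036 by limma) as lower. Leaving out a library gave 0 to 0.

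The log2 change of *FKBP7* stayed negative, between -0.95 and -0.50 under 10 alternatives and between -1.01 (without control replicate 1) and -0.25 (without control replicate 2) when 1 library was left out. For the other members, 87 of 90 values under these alternatives kept their sign, the exceptions being *FKBP5* under median centring, with or without the block, and GC correction. In this balanced design the block alone and the expression limits cannot alter a gene's log2 change. Agreement under those settings, also for *FKBP7*, was therefore fixed in advance. Leaving out 1 library unbalances the replicate numbers, and 18 of 36 values then changed sign. Genes that differ between the numbers counted 8383, and 7932 to 8528 under 6 alternatives. *FKBP7* had between 140 and 631 reads per library, which limits the precision of its ratio, and 2 libraries per group limit every comparison.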
